A study of Mus musculus with 12 samples.

Results

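The genes described here are 10 genes by which retinal ganglion cells and their axons are commonly recognised: the RNA-binding protein gene Rbpms, the transcription factor genes Pou4f1, Pou4f2 and Isl2, the synuclein gene Sncg, the surface glycoprotein gene Thy1, the glutamate transporter gene Slc17a6 and the neurofilament genes Nefl, Nefm and Nefh. They were picked by gene symbol. All 10 were among the 53707 genes of the count table, and 9 of them were among the 21061 genes with enough counts to be tested, Isl2 being left out. RNA was sequenced from retinas of wild type C57Bl/6J mice at 28 days of age that were freed of sclera, retinal pigment epithelium, cornea and iris and kept as explants for 48 hours in Neurobasal-A medium with 5 mM or 25 mM glucose. Each concentration had 3 biological replicates, and each of these had 2 technical replicates, the first in batch 1 and the second in batch 2, which gave 12 libraries. The labels do not say at which step a technical replicate was split off, nor whether biological replicates came from separate animals, so the p-values measure only the spread between these samples. Retina that had not been cultured was not analysed here, and both groups consisted of tissue whose optic nerve had been cut at dissection. The question put to these genes was whether ganglion cell RNA differed between explants kept at low and at high glucose.

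Retinal ganglion cells are the output neurons of the retina, and their axons form the optic nerve. Dissecting a retina cuts every one of these axons, and ganglion cells with a cut axon are known to lose RNA of their identity genes and later to die. Pou4f1 and Pou4f2 encode POU-homeodomain factors that direct ganglion cell differentiation and axon growth, and Isl2 encodes a LIM-homeodomain factor of a subset of ganglion cells. The neurofilament light, medium and heavy chains assemble into the intermediate filaments that set axon calibre. Slc17a6 encodes the vesicular glutamate transporter VGLUT2, which loads synaptic vesicles of ganglion cells, whereas the related Slc17a7 is used by photoreceptors and bipolar cells. In a whole retina a lower level of such RNA may stand for fewer ganglion cells or for less RNA in each cell, and these cannot be told apart in bulk samples.

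The sequences around the annotated starts of Slc17a6 and Pou4f1 are shown because, among the 8 members with at least 1 CPM (counts per 1000000) on average, these 2 had the largest fold differences between technical replicates of 1 sample. RefSeq (GRCm38.p6) lists 2 start sites for Slc17a6 and 1 for Pou4f1 in the promoter table used here, each given as a window of 300 bases from 250 bases before the start to 50 bases after it. Capitals mark the letters of a GC box (GGGCGG, searched on both strands) or of a homeodomain core (TAATTA, which reads the same on both strands), and the 2 motifs do not overlap in any of these windows. The sequences run 5′ to 3′ on the strand of the gene.
Slc17a6, upstream start, chr7:51621580-51621879, + strand: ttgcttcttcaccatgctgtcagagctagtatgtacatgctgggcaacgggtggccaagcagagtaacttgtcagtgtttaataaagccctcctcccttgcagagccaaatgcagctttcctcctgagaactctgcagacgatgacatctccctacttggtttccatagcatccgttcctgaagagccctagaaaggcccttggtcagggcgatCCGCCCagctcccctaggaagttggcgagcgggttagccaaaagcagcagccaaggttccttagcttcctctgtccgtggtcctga
Slc17a6, downstream start, chr7:51624387-51624686, + strand: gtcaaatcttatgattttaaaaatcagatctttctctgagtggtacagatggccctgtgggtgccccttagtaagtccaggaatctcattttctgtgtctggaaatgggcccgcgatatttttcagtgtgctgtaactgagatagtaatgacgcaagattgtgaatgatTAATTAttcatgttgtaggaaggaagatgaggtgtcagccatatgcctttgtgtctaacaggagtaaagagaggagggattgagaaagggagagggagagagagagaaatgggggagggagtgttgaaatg
Pou4f1, chr14:104467950-104468249, − strand: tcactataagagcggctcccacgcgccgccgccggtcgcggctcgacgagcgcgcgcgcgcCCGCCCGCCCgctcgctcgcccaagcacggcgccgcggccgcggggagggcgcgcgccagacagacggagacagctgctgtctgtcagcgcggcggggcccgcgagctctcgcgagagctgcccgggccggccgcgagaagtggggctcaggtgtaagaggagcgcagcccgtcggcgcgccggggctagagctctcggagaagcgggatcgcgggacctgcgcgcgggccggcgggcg
A GC box lay in 5 of the 6 windows that the table holds for 5 members (Slc17a6, Pou4f1, Pou4f2, Sncg and Isl2) and in 35.7% of all 32851 windows of this length. The downstream Slc17a6 window was the only 1 of these 6 with the homeodomain core, which 5.29% of all windows held. The 2 Slc17a6 windows also differed in base composition, with 53.7% and 43.0% G and C, against 78.3% in the Pou4f1 window. These matches describe the letters of the windows and were not tied to any measured level.

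The 12 libraries held between 14815285 and 36692484 estimated counts. Technical replicates were not near copies of each other: across all genes, 0 of the 12 libraries had its own technical replicate as the most similar library by Spearman correlation, and for 10 of 12 the most similar library was one of the same glucose concentration. The exceptions were both libraries of the first 5 mM replicate, whose most similar library belonged to the second 25 mM replicate. These facts bear on every value below, so library values are given beside those summed over technical replicates. Levels are given as CPM, that is, counts per 1000000 counts of the library, corrected for composition by the trimmed mean of M values.

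No member passed the threshold in the comparison of 25 mM with 5 mM glucose. With the technical replicates of each biological replicate summed, edgeR's quasi-likelihood test called 0 of the 9 tested members at a false discovery rate (FDR) under 0.05, against 417 of all 21061 genes (1.98%), while 1 member had an unadjusted p under 0.05, as did 28.7% of all genes. DESeq2, which gave no p-value for Slc17a6, called 1 of the other 8 members and 16.6% of all genes, and limma-voom called 0 members and 1.98% of all genes. Scaling by RLE factors (1.93% of genes called) or by library totals (2.18%) also gave 0 called members. At the study's own threshold, an FDR under 0.01 with a fold change over 2, no gene of the whole table was called here. The paper itself reported differentially expressed genes at that threshold, most of them higher with more glucose. Why the 2 analyses differ was not tested. Of the 9 members, 6 had a log2 fold change above 0 and 3 below it, and the median was 0.17 beside −0.01 over all genes tested. The replicates of the 2 concentrations did not overlap for 1 member, Rbpms, whereas they did not overlap for 31.8% of all genes tested. The spread of the members around these means was wide, and it did not follow the glucose labels alone, as the plot of every library shows.

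**Figure D1:**
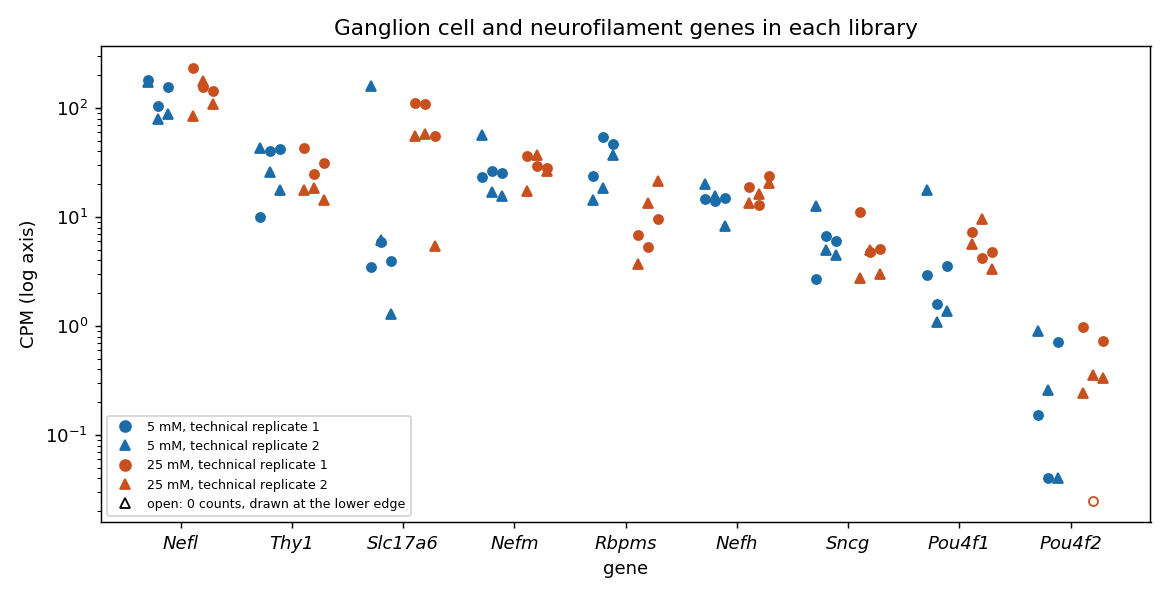
CPM of the 9 tested members (log axis) in each of the 12 libraries, with 5 mM glucose in blue, 25 mM in orange, first technical replicates as circles and second ones as triangles; within a gene and colour, replicates 1 to 3 run from left to right, and the open symbol is a library with 0 counts drawn at the lower edge. Slc17a6 reached 157.9 CPM in 1 library at 5 mM and lay between 1.30 and 6.14 CPM in the other 5 of that concentration, while the neurofilament genes overlapped between the colours throughout.

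Rbpms, which encodes an RNA-binding protein found in nearly all ganglion cell types of the retina, showed the largest difference among the members relative to its error. Its level was 20.0, 39.1 and 41.7 CPM in the 3 replicates at 5 mM glucose and 5.15, 10.2 and 16.0 CPM at 25 mM. Every replicate at 25 mM was thus below every replicate at 5 mM, which was the case in this direction for 15.8% of all genes tested. The fold change was 0.312, a log2 fold change of −1.68 (SE 0.44, n = 3 per group, edgeR FDR = 0.0712), which did not pass the threshold. Single libraries did overlap, since Rbpms ranged from 14.2 to 54.5 CPM (median 30.3) at 5 mM and from 3.72 to 21.5 CPM (median 8.14) at 25 mM. The direction was the same in all 33 alternative analyses, with log2 fold changes from −2.54 to −0.82, and 10 of them put the FDR under 0.05, with a range of 0.00311 to 0.556. Among the 10 were DESeq2, the table without a filter on low counts (5.63% of genes called), the 12 libraries as separate samples with a batch term (15.6%), a correction for GC content and length (10.9%), batch 1 alone, and the analyses without the first 5 mM replicate (26.6%), without its second library (8.27%) and without the second library of the third 25 mM replicate (14.4%). Within batch 1 the log2 fold change was −2.54 (edgeR FDR = 0.00852, where 17.3% of genes were called) and within batch 2 it was −0.82 (edgeR FDR = 0.556, where 0 genes were called). A joint fit of the 12 libraries, with the biological replicate as a block, put the difference between the batches in this effect at 1.46 (log2 scale, SE 0.62, edgeR FDR = 0.300), which was not called. That fit is separate from the 2 single-batch fits, so its value need not equal the gap between theirs.

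Levels of Rbpms went with those of vascular and of fibroblast genes. RBPMS is also known as a splicing regulator of smooth muscle cells, so vascular markers are set beside it. Of 18 vascular and mural cell genes, all of them tested and none at 0 in all libraries, 17 had a log2 fold change below 0. For 11 of the 18 the replicates at 25 mM lay wholly below those at 5 mM, as for 15.8% of all genes tested. EdgeR called none of the 18 and 1.98% of all genes. An unadjusted p under 0.05 was found for 15 of the 18 and for 28.7% of all genes. DESeq2 called 15 of the 18 and 16.6% of all genes, and limma-voom called 0 and 1.98%. The median log2 fold change of the 18 genes was −1.72. Their summed level ran from 1384 to 2421 CPM in the replicates at 5 mM and from 661 to 1236 CPM at 25 mM. The lowest was Tie1, an endothelial receptor gene, at −2.67, followed by the pericyte receptor gene Pdgfrb at −2.46, whereas the endothelial receptor gene Kdr was at −0.03 and the pericyte gene Rgs5 at 0.09. Over the 12 libraries, after the mean of each concentration was removed, Rbpms and the summed vascular and mural level on the log2 scale had Pearson's r = 0.91 and Spearman's rho = 0.91, and r = 0.90 without the 2 libraries farthest from the median. Over the 6 biological replicates the same values were 0.96 and 0.89. With the summed level of 8 fibroblast genes, whose median log2 fold change was −1.60, Rbpms had r = 0.86 and rho = 0.85 over the libraries, and r = 0.84 without the 2 farthest. Rbpms had r = −0.22 with the sum of the other ganglion cell identity genes, −0.50 with that of amacrine and −0.04 with that of rod genes. With the other members compared, r ran from −0.66 for Slc17a6 to 0.04 for Nefh, and was −0.03 for Nefl and −0.07 for Thy1. The 2 libraries of a replicate may share tissue, and all CPM share a library total, so these values are descriptions only. The part of vascular or fibroblast RNA in the Rbpms difference was not tested. Rbpms2, the paralog of Rbpms that is also found in ganglion cells, measured 3.88, 7.78 and 6.96 CPM at 5 mM and 4.82, 3.31 and 4.34 CPM at 25 mM, with overlapping replicates and a log2 fold change of −0.58 (SE 0.33, edgeR FDR = 0.273).

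**Figure D2:**
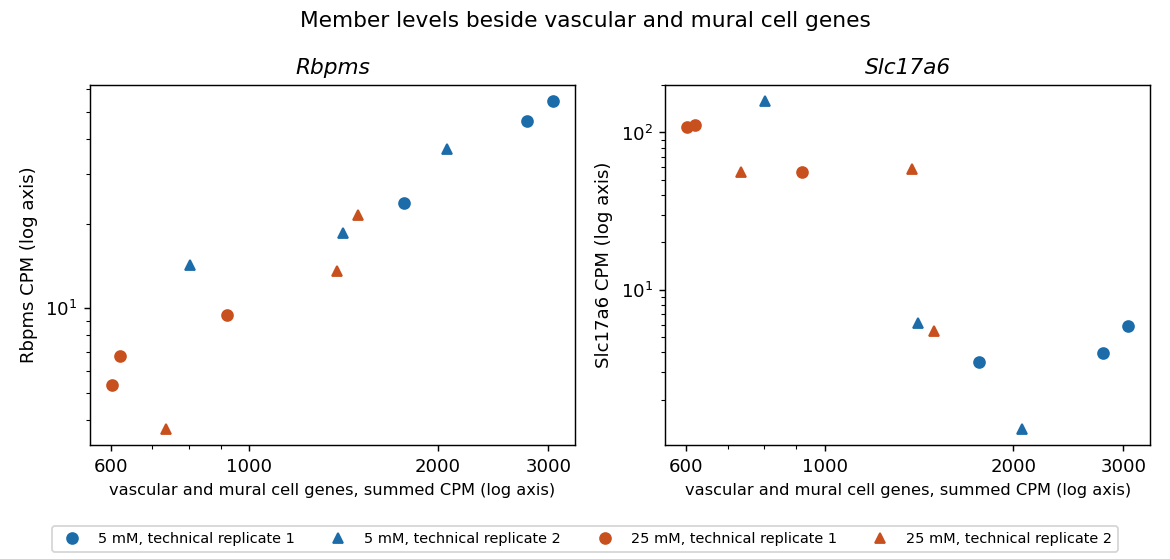
Levels of Rbpms (left) and Slc17a6 (right) in CPM against the summed CPM of 18 vascular and mural cell genes, both on log axes, with 1 point per library and colours and symbols for concentration and technical replicate. Rbpms, between 3.72 and 54.5 CPM, is higher in libraries with more vascular RNA, within each colour as well, whereas Slc17a6 is at 55.7 CPM or more in some libraries and at 6.14 CPM or less in the others.

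Per kilobase of the longest annotated transcript, the homeodomain factors were the least abundant members. In CPM, Pou4f1 averaged 5.93 at 25 mM, above Sncg at 5.22. Pou4f1 measured 9.32, 1.38 and 2.43 CPM at 5 mM and 6.33, 7.44 and 4.02 CPM at 25 mM. The first replicate at 5 mM exceeded all 3 at 25 mM and the other two were below them, so the groups overlapped, and the log2 fold change was 0.43 (SE 0.64, edgeR FDR = 0.673). That first replicate was itself divided, with 2.94 CPM in its first technical replicate and 17.8 CPM in its second. Without it, Pou4f1 was at a log2 fold change of 1.64 (edgeR FDR = 0.0225), in an analysis that called 26.6% of all genes, and over all alternatives its FDR ranged from 0.0225 to 0.998. Pou4f2, which acts earlier in ganglion cell development, measured 0.470, 0.136 and 0.362 CPM at 5 mM and 0.603, 0.219 and 0.520 CPM at 25 mM, with a log2 fold change of 0.46 (SE 0.55, edgeR FDR = 0.590). Its counts lay between 0 and 20.9 per library, and the library at 0 allows up to 0.202 CPM. Isl2 was near the limit of detection, with 0 to 2.83 counts per library and 3 of 12 libraries at 0, which allow up to 0.120, 0.154 and 0.130 CPM. A difference in Isl2 was therefore not detectable at this depth. The log2 ratio of Pou4f2 to Pou4f1 per kilobase of annotated exons was −2.87 ± 0.80 at 5 mM and −3.24 ± 1.10 at 25 mM (SD, n = 3 each, two-sided exact permutation p = 0.6, where 3 against 3 cannot go below 0.1).

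Sncg and Thy1 differed little between the concentrations and much between libraries. Sncg encodes gamma-synuclein, a small presynaptic and axonal protein enriched in ganglion cells, and it measured 7.01, 5.95 and 5.25 CPM at 5 mM against 6.84, 4.82 and 4.00 CPM at 25 mM. Thy1, a glycoprotein gene of ganglion cells that is also active in some other retinal cells, measured 24.1, 34.2 and 29.5 CPM at 5 mM against 29.8, 20.3 and 22.5 CPM at 25 mM. The groups overlapped for both genes, with log2 fold changes of −0.22 (SE 0.29, edgeR FDR = 0.634) and −0.27 (SE 0.22, edgeR FDR = 0.439). Within batch 1 the values were 0.43 and 0.09, and within batch 2 they were −1.06 and −0.78, none of them called. Between the technical replicates of the first 5 mM replicate, Sncg differed 4.73-fold, from 2.70 to 12.7 CPM, and Thy1 differed 4.28-fold, from 9.98 to 42.7 CPM. The pair varied together over libraries (Pearson's r = 0.86, Spearman's rho = 0.95, 12 libraries, centred within concentration) but hardly over the 6 biological replicates (r = 0.31, rho = 0.09), that is, mostly between technical replicates of the same sample.

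Slc17a6 had the widest range over libraries among the members of at least 1 CPM on average. Summed over technical replicates it measured 69.2, 6.00 and 2.60 CPM at 5 mM and 82.0, 75.2 and 29.1 CPM at 25 mM. The first replicate at 5 mM lay among those at 25 mM, and the other two lay far below. The log2 fold change was 1.26 (SE 1.03, edgeR FDR = 0.436) and did not pass the threshold. Part of the spread lay within biological replicates. At 5 mM, the technical replicates held 3.46 and 157.9 CPM in the first replicate, 5.86 and 6.14 in the second, and 3.97 and 1.30 in the third. At 25 mM, they held 111.6 and 55.7 CPM in the first, 108.7 and 58.2 in the second, and 55.9 and 5.44 in the third. Thus 1 of 6 libraries at 5 mM was high and 1 of 6 at 25 mM was low, both of them second technical replicates.

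The disagreement within the first 5 mM replicate was 113 against 3719 estimated counts, in libraries of 36692484 and 23406378 counts, a 45.6-fold difference in CPM. Of 16411 genes of at least 1 CPM, 10 (0.0609%), Slc17a6 included, differed as much between these technical replicates. In the third 25 mM replicate the difference was 10.3-fold, which 22 of these genes (0.134%) reached. The counts fell on the ordinary coding RNA, because the 12-exon transcript Slc17a6-201 held 98.8% of the gene's counts in the first 5 mM replicate and between 98.1% and 98.4% in the replicates at 25 mM. Without the second technical replicate of the first 5 mM replicate, the log2 fold change was 3.94 (SE 0.48, edgeR FDR = 0.010, in an analysis that called 8.27% of genes), and without the first technical replicate of the same sample it was 0.14 (SE 1.29, edgeR FDR = 0.954). Over the 32 alternatives that gave Slc17a6 an FDR, all but DESeq2, it ranged from 0.00758 to 0.954. Within batch 1 alone it was 4.35 (SE 0.37, edgeR FDR = 0.00758), and within batch 2 alone it was −0.52 (SE 1.47, edgeR FDR = 0.884). In the joint fit of the 12 libraries, which is separate from these single-batch fits, the difference between batches was −2.72 (SE 1.77, edgeR FDR = 0.468). Neither library was left out of the reported values, since no label gives a reason to do so.

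**Figure D3:**
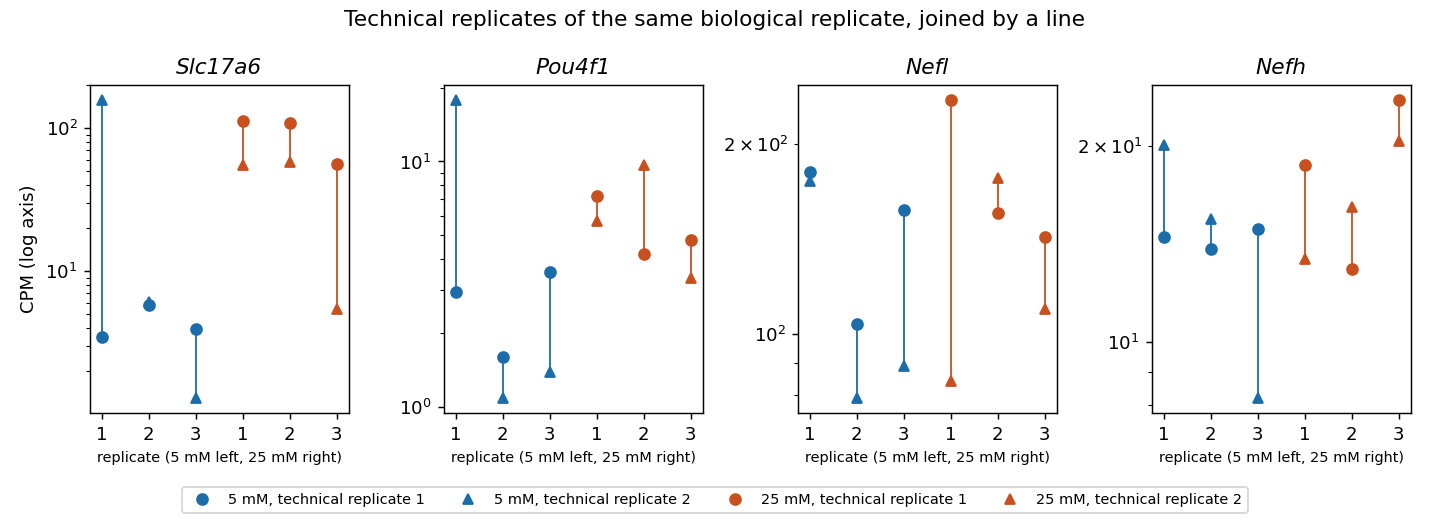
CPM (log axes, each panel with its own range) of Slc17a6, Pou4f1, Nefl and Nefh in the 2 technical replicates of each biological replicate, joined by a line, with 5 mM glucose in blue on the left and 25 mM in orange on the right of each panel. The first 5 mM replicate spans 3.46 to 157.9 CPM for Slc17a6 and 2.94 to 17.8 for Pou4f1, while its 2 Nefl values, 180.8 and 174.6, nearly coincide and its Nefh values are 14.5 and 20.1.

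The division was not seen in every member. Within the first 5 mM replicate, Nefl differed 1.04-fold and Nefh 1.38-fold between technical replicates, and within the third 25 mM replicate 1.30-fold and 1.16-fold. Summed levels of other lists in these 2 samples are given for the first and second technical replicate in turn. The whole list of amacrine cell genes summed to 657 and 1082 CPM in the first 5 mM replicate and to 624 and 367 CPM in the third 25 mM replicate, which is the direction of Slc17a6 within both. The 15 other ganglion cell identity genes also went in that direction, with 421 and 602 CPM in the former sample and 449 and 407 CPM in the latter. The direction was not particular to these lists. Bipolar cell genes summed to 1284 and 1996 CPM in the former and 1353 and 1175 CPM in the latter. Genes of the axon initial segment and node summed to 766 and 1269 CPM and to 1045 and 736 CPM, and those of the axonal cytoskeleton and transport to 2566 and 3434 CPM and to 2914 and 2682 CPM. Centred within concentration, Slc17a6 had r = 0.86 with the amacrine sum and r = 0.80 with the ganglion cell sum over the 12 libraries, on the log2 scale. The vascular and mural cell genes went the other way, with 1766 and 804 CPM in the former sample and 921 and 1493 CPM in the latter. So did the ganglion cell subtype, horizontal cell, fibroblast and, by little in the former sample, rod photoreceptor lists. The remaining lists besides the members kept to neither direction. Single genes made up most of the ganglion cell subtype and horizontal cell sums. Spp1 averaged 1417 CPM at 5 mM and 623 CPM at 25 mM, in subtype sums of 1220 to 1797 and 398 to 1030. Tpm3 averaged 306 CPM at 5 mM and 163 CPM at 25 mM, in horizontal cell sums of 330 to 431 and 205 to 283. The part of amacrine cell, bipolar cell, other ganglion cell or vascular RNA in the Slc17a6 values was not tested. Of the other vesicular glutamate transporters, Slc17a7 (VGLUT1) measured 112, 159 and 134 CPM at 5 mM and 155, 102 and 137 CPM at 25 mM, and Slc17a8 (VGLUT3, used by some amacrine cells) measured 88.3, 78.5 and 104.6 CPM at 5 mM and 38.8, 76.9 and 78.8 CPM at 25 mM. Their log2 fold changes were −0.04 (SE 0.21, edgeR FDR = 0.919) and −0.48 (SE 0.28, edgeR FDR = 0.277).

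The neurofilament genes differed little between the concentrations. Nefl, the light chain on which the other chains assemble, measured 181, 93.5 and 122 CPM at 5 mM and 157, 165 and 126 CPM at 25 mM. Nefm, the medium chain, measured 37.8, 22.3 and 20.2 CPM at 5 mM and 26.4, 33.4 and 27.4 CPM at 25 mM. Nefh, the heavy chain of mature large axons, measured 17.1, 14.7 and 11.5 CPM at 5 mM and 15.7, 14.6 and 22.0 CPM at 25 mM. The replicates of the concentrations overlapped for all 3 genes. The log2 fold changes were 0.17 (SE 0.25, edgeR FDR = 0.670) for Nefl, 0.12 (SE 0.27, edgeR FDR = 0.786) for Nefm and 0.27 (SE 0.25, edgeR FDR = 0.486) for Nefh. Over the 33 alternative analyses, Nefl ranged from −0.07 to 0.47, Nefm from −0.20 to 0.64 and Nefh from 0.07 to 0.76, and none of these values had an FDR under 0.05. Exons of Nefl and Nefm overlap on opposite strands of chromosome 14, and the sources used here do not say if reads were assigned by strand, which leaves reads in the shared stretch uncertain.

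The proportions of the 3 chains did not separate the concentrations. Per kilobase of all annotated exons, Nefm was 0.118 times Nefl at 5 mM and 0.114 times at 25 mM, a log2 ratio of −3.08 ± 0.27 against −3.13 ± 0.19 (SD, n = 3 each, two-sided exact permutation p = 0.8). Nefh was 0.0946 times Nefl at 5 mM and 0.0981 times at 25 mM (log2 ratio −3.40 ± 0.42 against −3.35 ± 0.52, SD, n = 3 each, exact permutation p = 0.8). The ratio of Nefh to Nefm was −0.32 ± 0.27 against −0.22 ± 0.44 on the log2 scale (SD, n = 3 each, exact permutation p = 0.8). The ratios to or from Nefm depend on the length used, since Nefm-201, of 3334 bases, held 99.7% of its counts while its annotated exons cover 5782 bases. Per kilobase of the longest transcript, Nefm was 0.185 times Nefl at 5 mM and 0.180 times at 25 mM, and Nefh was 0.510 and 0.546 times Nefm, with the same exact permutation p of 0.8. With 4 ratios tested in all, counting that of the Pou4f genes, adjustment could only raise these p-values. Nefl and Nefm varied together over the 12 libraries (Pearson's r = 0.76, Spearman's rho = 0.73, centred within concentration, and r = 0.62 without the 2 libraries farthest from the median of Nefl).

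Other intermediate filament genes of neurons lay lower at 25 mM without passing the threshold. Ina, whose product alpha-internexin joins the neurofilament chains in the central nervous system, measured 38.2, 29.2 and 26.2 CPM at 5 mM and 23.0, 20.6 and 20.7 CPM at 25 mM. Prph, which encodes peripherin, an intermediate filament protein of peripheral and some injured neurons, measured 3.90, 8.42 and 6.42 CPM at 5 mM and 2.36, 2.19 and 2.62 CPM at 25 mM. Replicates of the concentrations did not overlap for either gene, as for 31.8% of all genes tested. Single libraries did overlap, with Ina from 21.9 to 52.0 CPM at 5 mM and from 17.3 to 26.3 CPM at 25 mM. Prph ranged from 2.91 to 14.1 CPM at 5 mM and from 0.828 to 3.46 CPM at 25 mM. The log2 fold changes were −0.54 (SE 0.20, edgeR FDR = 0.132) for Ina and −1.38 (SE 0.33, edgeR FDR = 0.0644) for Prph, so that both were on the other side of 0 from Nefl, Nefm and Nefh. Within batch 1 the values were −0.32 for Ina and −0.55 for Prph, and within batch 2 they were −0.82 and −2.01, none of them called. Ina overlaps exons of Nt5c2 on the opposite strand, and its counts are uncertain for that reason.

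**Figure D4:**
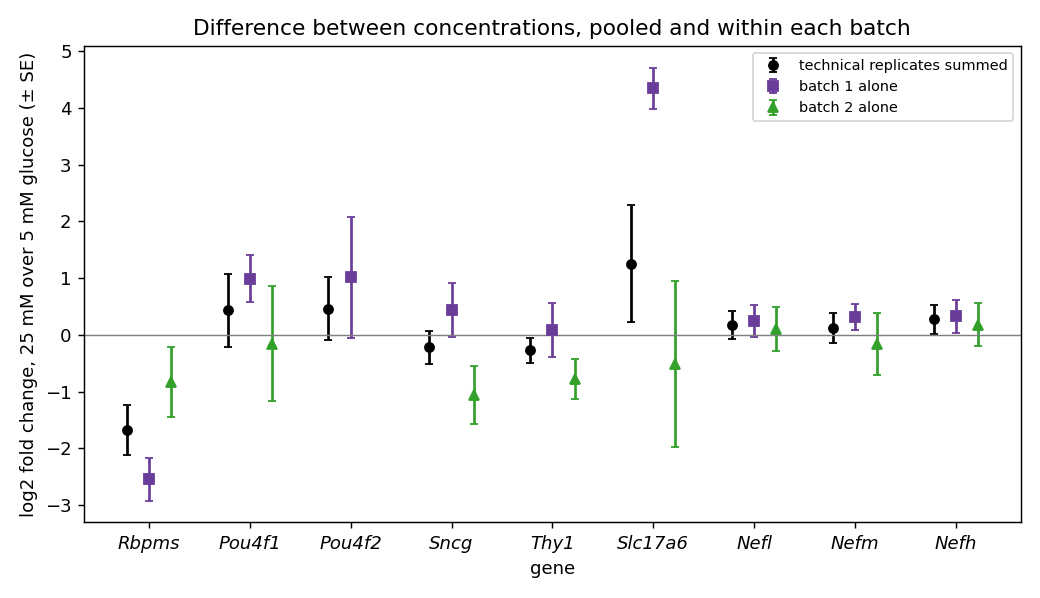
Log2 fold change of 25 mM over 5 mM glucose (± SE) for the 9 tested members with technical replicates summed (black circles, 3 against 3 replicates), in batch 1 alone (purple squares) and in batch 2 alone (green triangles, where Pou4f2 had too few counts). Slc17a6 spans −0.52 to 4.35 and Rbpms −2.54 to −0.82, whereas the values of Nefl, Nefm and Nefh lie between −0.16 and 0.32.

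Levels of different genes were compared per kilobase of the longest annotated transcript. At 5 mM, Nefl was the highest member at 39.1 ± 13.2 CPM per kilobase (SD, n = 3), followed by Thy1 at 16.9 ± 2.92 and Rbpms at 13.2 ± 4.65. Nefm at 7.27 ± 2.62, Sncg at 7.13 ± 1.04 and Slc17a6 at 6.27 ± 9.07 came next, and these 3 neighbours differed by less than their spread. Nefh at 3.61 ± 0.71 stood above Pou4f1 at 0.984 ± 0.971, Pou4f2 at 0.101 ± 0.053 and Isl2 at 0.034 ± 0.021. At 25 mM the order began with Nefl at 44.1 ± 6.10, Slc17a6 at 15.0 ± 6.97 and Thy1 at 14.0 ± 2.88 CPM per kilobase, where the latter 2 differed by less than their spread, and Rbpms at 4.11 ± 2.13 stood beside Nefh at 4.37 ± 1.00. The place of Rbpms depends on the length used, because per kilobase of all its annotated exons it was at 5.12 ± 1.81 at 5 mM, below Sncg, and at 1.60 ± 0.83 at 25 mM, below Nefh. The 2 homeodomain genes of the Pou4f family and Isl2 were at the end of the order at both concentrations. Defining ganglion cell markers were thus present in the explants, but Pou4f2 was under 1 CPM in all 12 libraries.

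The paralogs of the members, genes of the same families, were not called in the reported analysis either. Rbpms2 and Pou4f3 are counted again below, among the other ganglion cell identity genes. Of 9 paralogs, all tested, 0 were called (2 at an unadjusted p under 0.05, DESeq2 1, limma-voom 0), 2 had a log2 fold change above 0 and 7 below it, and the median was −0.38. Among all genes tested, edgeR called 1.98%, DESeq2 16.6% and limma-voom 1.98%, and 28.7% had an unadjusted p under 0.05. Isl1, the homeodomain gene of bipolar, amacrine and ganglion cells, measured 109, 86.5 and 96.2 CPM at 5 mM and 146, 116 and 91.7 CPM at 25 mM (log2 fold change 0.28, SE 0.20, edgeR FDR = 0.379). Isl1 thus stood far above Isl2 in every replicate. Within batch 1 alone Isl1 was called, at 1.07 (edgeR FDR = 0.0194, where 17.3% of genes were called). Within batch 2 alone it was at −0.37 (edgeR FDR = 0.509). Sncb, the beta-synuclein gene, was at a log2 fold change of −0.38 (SE 0.33, edgeR FDR = 0.451). Pou4f3 was at 0.23 (SE 0.47, edgeR FDR = 0.764) with 0.226 to 0.493 CPM in all 6 replicates.

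Transcript estimates showed how the counts of 2 members were spread over isoforms. Rbpms has 15 annotated transcripts, of which Rbpms-203 held 43.2% ± 1.6 of its counts at 5 mM and 42.1% ± 8.6 at 25 mM (SD, n = 3 each). Rbpms-201 held 32.1% in the first replicate at 5 mM and at most 1.02% in the other 5 replicates, whereas Rbpms-213 held 0.0381% in that first replicate and between 24.3% and 38.2% in the others. Both technical replicates of that sample showed this, with 30.3% and 36.6% on Rbpms-201, unlike the levels of Slc17a6, which differed between them. Pou4f1 counts lay on the coding transcript Pou4f1-201 and on the 2-exon noncoding transcript Pou4f1-202, which held 23.0% ± 11.6 at 5 mM and 31.6% ± 3.1 at 25 mM. The estimates divide reads that several transcripts share, and no test was made on them.

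No gene of the further ganglion cell lists was called. For the counts below, the shares over all genes tested were 1.98% called by edgeR and 28.7% with an unadjusted p under 0.05. DESeq2 called 16.6% of all genes and limma-voom 1.98%. Of 15 other ganglion cell identity genes, all tested, 0 were called (3 at an unadjusted p under 0.05, DESeq2 1, limma-voom 0), 8 were above 0 and 7 below it, and the median log2 fold change was 0.23. Their highest values were those of Nrn1, a neuritin gene, at 0.84 (SE 0.52, edgeR FDR = 0.303), and Gap43 at 0.61 (SE 0.32, edgeR FDR = 0.237), and their lowest those of Uchl1, a neuronal ubiquitin hydrolase gene, at −0.87 (SE 0.21, edgeR FDR = 0.0654), and Ebf1 at −0.61 (SE 0.23, edgeR FDR = 0.132). Of 16 genes that mark ganglion cell subtypes, 15 were tested and 0 called (5 at an unadjusted p under 0.05, DESeq2 5, limma-voom 0), with a median of −0.27. Among them Cartpt, a peptide gene of direction-selective cells, was at 1.45 (SE 0.43, edgeR FDR = 0.0858) and Tbr1 at 0.43 (SE 0.36, edgeR FDR = 0.455), while Spp1, osteopontin of alpha ganglion cells, was at −1.19 (SE 0.37, edgeR FDR = 0.0960) and Fes at −1.97 (SE 0.61, edgeR FDR = 0.0915). Spp1 is also active in microglia and in other cells.

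The lists for the axon and its response to injury also held no called gene. Among all genes tested, edgeR called 1.98%, DESeq2 16.6% and limma-voom 1.98%, and 28.7% had an unadjusted p under 0.05. Replicates did not overlap for 31.8% of all genes, and those at 25 mM lay wholly below for 15.8%. Of 21 genes of the axonal cytoskeleton and transport, all tested, 17 were below 0 and 4 above it, with a median of −0.47 and 0 calls (10 at an unadjusted p under 0.05, DESeq2 3, limma-voom 0), and 7 had replicates at 25 mM wholly below those at 5 mM. Prph and Uchl1 were lowest, and Gap43 and the microtubule gene Map1b highest, Map1b at 0.50 (SE 0.19, edgeR FDR = 0.130). Of 14 genes of the axon initial segment and node, all tested, 0 were called (2 at an unadjusted p under 0.05, DESeq2 0, limma-voom 0) and 7 lay on each side of 0, with a median of −0.04. The potassium channel gene Kcnq3 was at 0.89 (SE 0.37, edgeR FDR = 0.165) and the sodium channel gene Scn8a at 0.59 (SE 0.18, edgeR FDR = 0.0913), while the spectrin gene Sptbn4 was at −0.64 (SE 0.54, edgeR FDR = 0.448) and Kcna1 at −0.53 (SE 0.27, edgeR FDR = 0.229). Of 17 genes that respond to a cut axon, all tested, 0 were called (4 at an unadjusted p under 0.05, DESeq2 3, limma-voom 0), 9 were above 0 and 8 below it, and the median was 0.03. Sprr1a, a regeneration-associated gene, was at 1.45 (SE 0.38, edgeR FDR = 0.0732) and the peptide gene Gal at 1.01 (SE 0.33, edgeR FDR = 0.102), both with all replicates at 25 mM above those at 5 mM. The stress gene Chac1 was at −1.30 (SE 0.42, edgeR FDR = 0.0974) with overlapping replicates. Klf6 was at −0.69 (SE 0.25, edgeR FDR = 0.125) with all replicates at 25 mM below those at 5 mM.

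Markers of neighbouring cells give the setting of these values. Of 14 rod photoreceptor genes, all tested, 6 were called higher at 25 mM (1.47% of all genes were), 14 had a log2 fold change above 0, and the median was 0.89. Cnga1, a subunit of the rod cyclic nucleotide channel, rose by 2.12 (SE 0.29, edgeR FDR = 0.0261) and the phosphodiesterase gene Pde6b by 1.65 (SE 0.18, edgeR FDR = 0.0217), while Rom1 was at 0.36 (SE 0.32, edgeR FDR = 0.467) and Pde6g at 0.24 (SE 0.37, edgeR FDR = 0.693). The summed rod level ran from 3107 to 5966 CPM at 5 mM and from 6757 to 9334 CPM at 25 mM. The scaling used here corrects CPM for composition, and any part of the rod level left in the members' lower or higher CPM was not tested. Of 8 fibroblast genes, 2 were called lower at 25 mM (0.513% of all genes were) with a median of −1.60, among them the collagen gene Col3a1 at −2.36 (SE 0.37, edgeR FDR = 0.0326), and Fbln1 was at −2.50 (SE 0.67, edgeR FDR = 0.0736), Pdgfra at −0.72 and Lum at −0.76. Their summed level was 244 to 321 CPM at 5 mM and 47.0 to 167 CPM at 25 mM.

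Among the other neurons and glia, 0 of 12 tested amacrine cell genes (of 14), 0 of 7 horizontal cell genes, 0 of 10 bipolar cell genes and 0 of 9 Mueller glia genes were called, with medians of −0.16, −0.40, 0.28 and 0.03. At an unadjusted p under 0.05 there were 5, 1, 4 and 4 of them, DESeq2 called 5, 1, 2 and 1, and limma-voom called 0 in each list. Among all genes tested, edgeR called 1.98%, DESeq2 16.6% and limma-voom 1.98%, and 28.7% had an unadjusted p under 0.05. The amacrine extremes were Chat at 1.94 and Calb2 at 0.93 above, and the inhibitory transporter gene Slc32a1 at −1.61 and Gad2 at −0.96 (edgeR FDR = 0.0562) below. The horizontal cell extremes were Onecut2 at 0.83, Calb1 at 0.36, Slc4a3 at −0.58 and Tpm3 at −0.91, those of bipolar cells were Cabp5 at 0.99, Vsx1 at 0.69 and Pcp2 at −0.97, and those of Mueller glia were Abca8a at 0.87, Aqp4 at 0.76, Dkk3 at −0.42 and Apoe at −1.32. Of 12 optic nerve glia genes, 8 were tested, with a median log2 fold change of −0.18, and Mobp was at 0.80 and Pax2 at −1.78. The calls within this list are not reported here. The labels do not say how much optic nerve stump was left on an explant.

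Over the 12 libraries, centred within concentration, the mean of the members was followed most closely by Rab15 (Pearson's r = 0.961), Ptpn5 (0.951), Gabbr1 (0.948), Atp6v1g2 (0.947) and Nell1 (0.943) out of 16403 genes with at least 1 CPM on average. These are the highest of many values and share library totals with the members, so they are named as a description. Rab15, a gene of endosome recycling, measured 6.83 and 21.2 CPM in the technical replicates of the first 5 mM replicate, in the same direction as Pou4f1, Sncg, Thy1, Nefm and Slc17a6. Gabbr1, a GABA receptor gene, ranged only from 74.1 to 133 CPM over all libraries. Pou4f1 and Nefm also varied together (Pearson's r = 0.83, Spearman's rho = 0.66, 12 libraries), but r was 0.50 without the 2 libraries farthest from the median of Pou4f1, so much of that value rests on those libraries.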

How the data were processed

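RNA-seq libraries were prepared by the authors from retinal explants with a stranded low-input total RNA kit and sequenced as read pairs. The authors deposited estimated counts (expected counts) per gene and per transcript, not normalized between libraries, with technical replicates kept apart. The submitters' processing notes name the build GRCm38, and the counting tool and annotation are not given in the sources used here. Of nonzero gene values, 100.0% were not whole (tolerance 1e-6), as were 86.2% of transcript values. Gene values equal transcript sums times a constant of the library for 82.2% of genes with 1 transcript (within 1%) but for 17.6% of genes with several, so the gene values appear to have been rescaled for transcript length. No column was left unused.

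Here, technical replicates were summed, values rounded, genes filtered with filterByExpr and scaled by TMM, and 3 replicates at 5 mM compared with 3 at 25 mM by the quasi-likelihood test of edgeR 4.0.16 (R 4.3.3, the method of its version 3, as in the study) with Benjamini-Hochberg adjustment over 21061 genes and no replicate block. Log2 CPM used a prior count of 2, and ratios a pseudocount of 0.5 counts. The biological coefficient of variation was 0.297. Symbols, lengths and overlaps came from GENCODE M21. Counting limits (3 counts for a count of 0) cover counting error only, since amplified reads without molecular identifiers are not independent molecules. Alternatives used DESeq2 1.42.0 and limma 3.58.1, other scalings and filters, single batches, replicate numbers as a block, GC content and length as offsets, and samples left out. Other scripts ran in Python 3.11.15 (pandas 2.3.3, scipy 1.17.1). The fits in R were tested on simulated counts with less spread than these data. That test checked median log2 fold changes, not the rate of calls at the spread of these data.

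The members, the 14 further gene lists, the tests and the named genes were chosen with earlier results of these data known. Named genes were all members and paralogs, the 2 highest and 2 lowest tested genes of each other list, and the 5 genes most correlated with the mean of the members, except that 3 genes and the calls within 1 list are not reported here. The equal-depth sums and the analyses without single libraries were added after seeing the data. CUT&Tag samples were not used here.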

Additional observations from a re-analysis of the deposited data

Results flagged for a closer look

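In each gene, the 6 libraries of a concentration were searched for a value far from the others (Dixon's test at the 95% level). It marked 4 of 18 groups of libraries. For independent, normally distributed values it would mark about 1 in 20, or 0.9 of them. The 6 libraries of a group are technical replicates of 3 samples, and the genes share libraries, so 0.9 is not a chance rate for these data. In the second technical replicate of the first 5 mM replicate, Slc17a6 stood at 157.9 CPM with the nearest other library at 6.14 CPM, Pou4f1 at 17.8 CPM with the nearest at 3.53 CPM, and Nefm at 56.8 CPM with the nearest at 26.2 CPM. These 3 values come from 1 library and are not independent of each other. In the first technical replicate of the first 25 mM replicate, Sncg stood at 11.1 CPM with the nearest other library at 5.08 CPM.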

How the results depend on the processing

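Of the members, 0 were called in the reported analysis and 1, Rbpms, was called with DESeq2 (log2 fold change −1.68, adjusted p = 0.00311), without a filter on low counts (−1.70), with the 12 libraries as separate samples and a batch term (−1.68), after a correction for GC content and length (−1.61), with a replicate block (−1.76, edgeR FDR = 0.0238, 4.70% of all genes called) and with both the block and that correction (−1.68, 13.0%). The deviations of same-numbered replicates had correlations of −0.0138, −0.449 and 0.285. With 3 replicates per group these values cannot decide if the numbers pair the samples, and no label states it. The block moved the calls over all genes from 417 to 990. Batch 1 alone called 2 of 9 members (Rbpms and Slc17a6) and 17.3% of all genes. Non-overlapping members numbered 1 as reported (31.8% of all genes), 0 with 12 separate libraries (4.72%), 4 in batch 1 (41.4%) and 0 in batch 2 (16.1%). The median of the members, 0.17, was −0.34 in batch 2 and 0.60 with the block and the correction. Without 1 biological replicate, between 0 and 3 members were called (0% to 26.6% of all genes), between 1 and 5 did not overlap (35.7% to 62.8%), and the median ran from −0.01 to 0.45. The 3 and the 5 came from leaving out the first 5 mM replicate, which also gave the 26.6% and the 62.8%. Without 1 library, these ranges were 0 to 2 (0% to 14.4%), 0 to 4 (24.1% to 37.5%) and −0.20 to 0.37. Here the 2 and the 4 came from leaving out the second library of the first 5 mM replicate, with 8.27% and 34.4% of all genes. The 14.4% and the 37.5% came without the second library of the third 25 mM replicate, where 1 member was called and 1 did not overlap. The direction was reversed for Sncg (0.43) and Thy1 (0.0863) in batch 1, for Pou4f1 (−0.15), Nefm (−0.16) and Slc17a6 (−0.52) in batch 2, for Thy1 with the correction (0.0537) and with the block as well (0.0416), and for Sncg with both (0.0162). Leaving out samples reversed Nefl (−0.03) and Nefm (−0.01) without the second 5 mM replicate, Nefm (−0.06) without the third, Pou4f1 (−0.29) and Nefm (−0.20) without the first library of the first 5 mM replicate, Sncg (0.16) without its second library, Nefl (−0.0743) and Nefm (−0.03) without the first library of the first 25 mM replicate, and Sncg (0.13) without its second library. At the other end, these analyses gave Pou4f1 at 1.64 and Nefl at 0.47 without the first 5 mM replicate and Sncg at −0.64 without the first library of the first 25 mM replicate. Rbpms was also called without the first 5 mM replicate (−1.95), without the second library of that replicate (−1.74) and without the second library of the third 25 mM replicate (−2.03). The cause was not tested. The scalings by RLE factors and library totals changed no call of a member. DESeq2 gave no p-value for Slc17a6. Depth limits Isl2 and Pou4f2.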
